A study of Homo sapiens with 12 samples.

Results

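The response of A549 control cells to bortezomib was followed in 4 RNA-seq libraries of a series of 12. A549 is an established human cell line derived from a lung carcinoma. The control line, labelled Control1, carries no NFE2L1 knockout, and the series' other 8 libraries come from 2 lines of the same cells with a knockout of NFE2L1, labelled KO1 and KO2. In each line cells received either DMSO, the vehicle, or bortezomib at 200 nM for 4 h, with 2 libraries per group. The labels do not say how the control line was made or whether it is 1 clone. The 4 libraries were chosen by line and treatment alone, and they form 2 pairs by title: a vehicle and a bortezomib library without a replicate number (the unnumbered pair) and a vehicle and a bortezomib library numbered R2. Of 58676 genes in the deposited table, 12194 had a mean of at least 1 FPKM (fragments mapped to a gene, scaled to its length and to the library's assigned reads) over the 12 libraries and were tested.

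Bortezomib is a reversible inhibitor of the catalytic core of the proteasome, the protease complex that degrades ubiquitin-tagged proteins. When degradation stalls, misfolded proteins build up, heat shock factor 1 turns on chaperone genes, and kinases that sense stress phosphorylate the initiation factor eIF2, which slows protein synthesis while raising the translation of the transcription factor ATF4. NFE2L1 is itself degraded by the proteasome in untreated cells. When the proteasome is inhibited, processed NFE2L1 enters the nucleus and acts on proteasome subunit genes.

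The control-line libraries held 14067074 to 23819258 reads assigned to genes, and 20713 to 23084 genes were above 0. The epithelial keratins KRT7, KRT8 and KRT18 were high in all 4 libraries, for example KRT7 at 574 and 223 FPKM with vehicle and 647 and 304 with bortezomib. KRT19 was lower, at 17.4 and 11.97 FPKM with vehicle and 14.2 and 8.12 with bortezomib. Epithelial markers other than keratins were low. With vehicle EPCAM was at 1.25 and 2.19 FPKM, CDH1 at 1.75 and 3.74, and CLDN4 at 0.625 and 0.955, while CLDN7 and ESRP1 did not pass the filter. The mesenchymal markers VIM and CDH2 were at 106 and 41.1 FPKM and at 11.9 and 17.1 with vehicle. Of the fibroblast, endothelial and immune cell markers, KDR, TIE1 and CD68 were at 0 in all 4 libraries. Only COL1A1 and CD14 passed the filter on low values, and the others were at 0.53 FPKM or less in each library. COL1A1 was at 5.18, 1.85, 6.10 and 10.7 FPKM, in the same order of vehicle and then bortezomib libraries, and was not called (limma adjusted p = 0.0762), though it was with voom and the pair term (limma adjusted p = 0.00561) and without either unnumbered library. CD14 was at 2.38, 3.12, 0.339 and 0.591 FPKM and was called lower. Mitochondrial genes took 6.64% of reads in the unnumbered vehicle library and 6.80% in the unnumbered bortezomib library, against 12.3% and 15.6% in the R2 pair. Across genes, log2(FPKM + 1) was more alike within a pair (Pearson's r of 0.918 and 0.908) than between the 2 libraries of a treatment (0.896 and 0.897).

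Differences were tested with a limma model of log2(FPKM + 1) with a mean for each group and a term for the replicate pair, and genes under an adjusted p of 0.05 (Benjamini-Hochberg, over all genes tested) are referred to as called. Bortezomib called 3952 genes, 32.4% of those tested: 1958 higher (16.1%) and 1994 lower (16.4%). All 3952 moved the same way in both pairs, against 76.6% of all genes tested and 65.4% of those not called. Calls rest on the mean change of the pairs, so they favour genes whose pairs agree. The median log2 fold change was 0.74 among the higher genes, -0.79 among the lower ones and -0.01 over all genes tested. The change was at least 1 on the log2 scale for 468 higher and 585 lower genes, and at least 2 for 34 and 49. The bortezomib libraries both lay above both vehicle libraries for 2062 genes (16.9%), and both lay below for 2123 genes (17.4%). Without the term for the pair, 57 genes were called (0.467%), 28 higher and 29 lower, and all 57 were also called with it. Leaving out either unnumbered library left 2257 or 2245 calls, and leaving out either R2 library left 1749 or 1761.

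**Figure D1:**
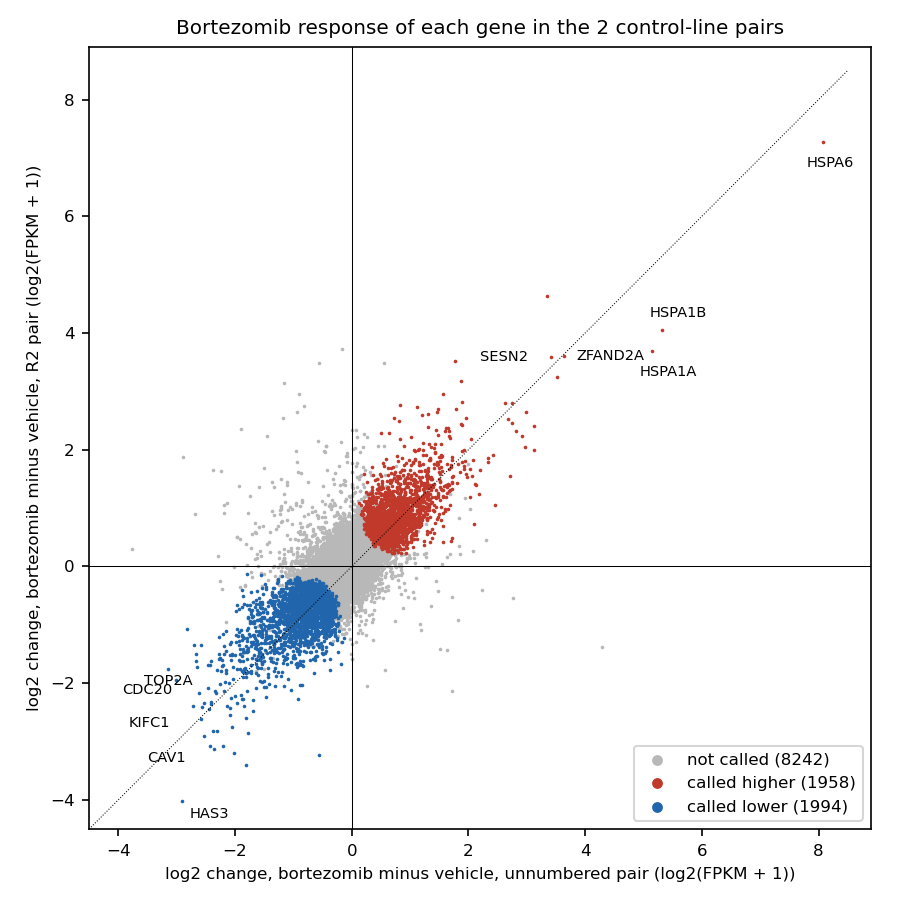
Log2 change from vehicle to bortezomib of each of the 12194 genes tested, on the log2(FPKM + 1) scale, in the unnumbered pair (horizontal) and the R2 pair (vertical). The dotted line marks equal change. All 3952 called genes (1958 red, 1994 blue) have the same sign in both pairs, which calling on the mean change of the pairs favours. HSPA6 has the largest rise.

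Heat shock protein genes made up the largest rises. HSPA6 encodes a heat-inducible HSP70 chaperone that most unstressed cells barely express. Its FPKM was 0.301 and 0.406 in the unnumbered and R2 vehicle libraries and 351 and 216 in the matching bortezomib libraries. The ratio within a pair was 1167 and 533. The model gave a log2 fold change of 7.68 ± 0.19 (pooled SE, n = 2 pairs; limma adjusted p = 1.89e-07). This SE comes from a spread pooled over all 6 groups of the series, not from the 2 control-line pairs alone. HSPA1B, a main inducible HSP70, was at 18.9 and 21.1 FPKM with vehicle and at 793 and 366 with bortezomib. HSPA1A, its near-identical neighbour, went from 41.5 and 48.8 FPKM to 1495 and 639. The vehicle and bortezomib groups did not overlap for any of the 3 genes, which was a condition for being ranked among the largest rises. The split of reads between HSPA1A and HSPA1B is uncertain because their sequences are nearly the same, and HSPA6 overlaps an annotated transcript on its own strand, RP11-25K21.6. These 3 genes were also called without the term for the pair.

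The rise ran through the chaperone classes but did not take in every member. Of 14 HSP70 and HSP110 genes tested 9 rose and none fell, with a median log2 change of 1.06. HSPH1, an HSP110 that acts as a nucleotide exchange factor for HSP70, rose from 24.1 and 23.3 FPKM to 195 and 99.7. HSPA2 and HSPA1L had log2 changes of -0.01 and -0.11 and were not called. Among the J-domain co-chaperones, which deliver clients to HSP70, 10 of 18 rose and none fell (median 0.71). DNAJB1, the partner of HSP70 in the heat shock response, rose from 41.6 and 25.3 FPKM to 297 and 131. Of the HSP90 genes and their co-chaperones, 9 of 14 rose and none fell (median 0.79). HSP90AA1, the inducible HSP90, went from 427 and 337 FPKM to 1930.0 and 803. Of the small heat shock and BAG genes 4 of 10 rose. BAG3, which links HSP70 to selective autophagy, rose from 43.2 and 29.9 FPKM to 384 and 163. The cytosolic and mitochondrial chaperonins had smaller changes: all 10 were higher in both pairs, while only HSPD1 and TCP1 passed the test (median 0.35).

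These lists together with their read shares show how large the response was in the RNA pool. HSP70 and HSP110 genes took 0.395% and 0.303% of assigned reads in the vehicle libraries and 1.5% and 0.725% in the bortezomib libraries. HSP90 and its co-chaperones took 0.599% and 0.427% of reads with vehicle and 1.76% and 0.817% with bortezomib. In both lists the share was higher in the unnumbered bortezomib library than in the R2 one. The counts of risen HSP70, J-domain and HSP90 genes were 8, 9 and 7 without either unnumbered library, and 9, 8 and 7 without either R2 library.

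The heat shock element, a repeat of nGAAn units bound by heat shock factors in alternating orientation, was searched in promoters as 3 such units in a row, on both strands. RefSeq promoters (build GRCh38.p14, 250 bases before to 50 after the start) were available for 9025 of the genes tested. The element was in 0.288% of those, in 4.0% of the 100 called genes with the largest rises and in 0.0% of the 100 with the largest falls. Over all called genes with a promoter it was in 7 of 1484 higher genes (0.472%) and 1 of 1516 lower ones (0.066%). It was in 0.49% of all 35116 RefSeq promoters. The 4 with it among the largest rises were HSPA6, CHORDC1 (an HSP90 co-chaperone), DNAJB6 (a J-domain protein that holds aggregating proteins) and SERPINH1 (the collagen chaperone of the endoplasmic reticulum). The windows below lie before the starts of HSPA6 (chr1:161524442-161524501, plus strand) and DNAJB6 (chr7:157336849-157336908, plus strand), and outside annotated exons. They are shown because they hold the element, which is in capitals, 5′ to 3′.
HSPA6: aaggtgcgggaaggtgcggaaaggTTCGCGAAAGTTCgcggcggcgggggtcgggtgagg
DNAJB6: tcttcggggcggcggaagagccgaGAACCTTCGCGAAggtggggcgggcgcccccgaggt
The match ends 62 bases before the start in HSPA6 and 119 bases before it in DNAJB6. DNAJB6 itself rose from 8.04 and 4.50 FPKM to 25.1 and 16.9, and CHORDC1 from 9.84 and 7.07 to 40.1 and 24.6. Both lay above both vehicle libraries with bortezomib.

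Genes of the ubiquitin system rose beside the chaperones. ZFAND2A, an arsenite- and stress-inducible protein that binds the proteasome, was at 8.82 and 5.86 FPKM with vehicle and at 121 and 83.0 with bortezomib. Its ratio was 13.7 in the unnumbered pair and 14.2 in the R2 pair, so both pairs gave nearly the same change. NPLOC4 and UFD1L, the cofactors with which the p97 segregase extracts ubiquitinated proteins, rose by 1.65 ± 0.15 and 1.24 ± 0.16 on the log2 scale (pooled SE; limma adjusted p = 0.000191 and 0.000813). VCP, which encodes p97 itself, had a log2 change of 0.33 and was not called. In this list of ubiquitin genes and shuttle factors 7 of 18 rose and none fell (median 0.48), and 7 rose without any 1 of the 4 libraries.

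Most 19S cap genes of the proteasome rose, and fewer of the 20S core genes did. The 19S cap recognises and unfolds substrates and the 20S core cleaves them. Of 19 cap genes 15 rose and none fell (median 0.80, with 18 of 19 higher in both pairs). The largest rises were in the ATPase genes PSMC4 and PSMC6. PSMC4 was at 112 and 53.6 FPKM with vehicle and at 285 and 156 with bortezomib. PSMC6 went from 13.2 and 7.53 FPKM to 31.3 and 25.3. Neither gene's groups overlapped. All 12 core genes tested were higher in both pairs, but only 5 rose in the test (median 0.49). PSMB4, at 73.7 and 37.1 FPKM with vehicle and 112 and 84.9 with bortezomib, was the largest. Its call was lost without either R2 library. PSMB5, the core subunit that bortezomib binds, was at 91.8 and 43.3 FPKM with vehicle and 111 and 61.7 with bortezomib, and was not called (log2 change 0.39).

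The subunit calls rested on both pairs. Without either unnumbered library 6 cap genes and 2 core genes were called, and without either R2 library 7 and 0. None was called without the term for the pair. The 3 genes of the interferon-induced immunoproteasome were not called, and PSMB10, the one with the largest change, was at 0.725 and 0.548 FPKM with vehicle and 0.959 and 1.15 with bortezomib. Among assembly factors and activators 2 of 14 rose and 1 fell, no more than the 16.1% and 16.4% over all genes. USP14, a deubiquitinase on the cap, rose from 23.6 and 11.8 FPKM to 46.0 and 22.3, PSME4, which encodes the activator PA200, rose from 13.0 and 8.84 to 23.98 and 16.01, and PSMG3, an assembly chaperone, fell from 17.6 and 15.8 to 9.97 and 11.2. The call of PSMG3 was lost without either unnumbered library.

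NFE2L1 (chromosome 17, 48048329 to 48061487) was at 72.7 and 151 FPKM with vehicle and 109 and 189 with bortezomib. The change of 0.45 ± 0.16 (pooled SE) on the log2 scale missed the threshold (limma adjusted p = 0.0578), and the groups overlapped. It passed with quantile normalization (limma adjusted p = 0.022), with voom and the pair term (0.0382), with a pseudocount of 5 and without mitochondrially encoded genes. Over all alternatives the limma adjusted p of NFE2L1 ran from 0.022 to 0.868. A list of 12 genes held NFE2L1, its relative NFE2L2, genes that process or degrade NFE2L1, its small MAF partners and the competing factor BACH1, and 6 of them rose and none fell. MAFF, a small MAF protein with which NFE2L1 and NFE2L2 bind DNA, rose from 0.987 and 0.781 FPKM to 4.70 and 4.37. Its groups did not overlap, and it was called without the term for the pair. With either unnumbered library left out 4 of the 12 were called, and with either R2 library left out 3.

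The antioxidant response element, the site of MAF heterodimers, was searched as TGACNNNGC on both strands. It occurred in 15.3% of the promoters of genes tested and 13.3% of all RefSeq promoters. The share was 29% in the 100 largest rises, 18.0% in the 100 largest falls, 5 of 18 promoters of cap genes and 1 of 8 of core genes. In the other lists searched the share ran from 4.76% (mitosis) to 36.4% (HSP90 and co-chaperones), and was 25.0% in DNA replication. Over all called genes it was 18.3% among the higher and 14.5% among the lower ones. NT5E, MCM2 and ITGB5, all called lower, have the element before their starts. The windows of PSMD12, a cap subunit (chr17:67366709-67366768, minus strand), and ME1, the NADPH-forming malic enzyme (chr6:83431155-83431214, minus strand), show the element in capitals.
PSMD12: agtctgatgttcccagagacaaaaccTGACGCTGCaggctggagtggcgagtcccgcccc
ME1: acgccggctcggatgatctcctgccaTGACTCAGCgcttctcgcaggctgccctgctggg
PSMD12 rose from 29.1 and 16.3 FPKM to 80.8 and 37.8. ME1 rose from 37.2 and 15.3 FPKM to 99.3 and 41.9. ME1 was among the 4 rises in a list of 25 NRF2 and redox genes, held to be driven by the related factor NFE2L2. In that list 7 genes fell, and the median log2 change was -0.41. The share of rises was near the 16.1% called higher over all genes tested, and that of falls above the 16.4% called lower. OSGIN1, an oxidative stress response gene, rose from 16.3 and 13.4 FPKM to 53.03 and 36.0. ABCC3, a drug efflux pump, fell by 1.04 on the log2 scale. HMOX1, heme oxygenase 1, rose from 147 and 47.1 FPKM to 174 and 102, a call lost without either R2 library. Without either unnumbered library 4 of the 25 rose and 4 fell, and without either R2 library 2 rose and 3 fell.

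Stress genes downstream of ATF4 and CHOP had the highest median of the 51 gene lists. Of 20 tested, 15 rose and 1 fell, with a median log2 change of 1.53. SESN2, which restrains the growth kinase complex mTORC1, was at 3.23 and 2.15 FPKM with vehicle and 44.2 and 37.1 with bortezomib. PPP1R15A, which directs a phosphatase to eIF2, went from 12.8 and 10.9 FPKM to 108 and 74.0. ATF3, a stress-induced repressor, went from 0.644 and 0.291 FPKM to 11.4 and 5.11. All 3 had groups that did not overlap, for SESN2 and PPP1R15A a condition of their ranking among the largest rises. All 3 were called without the term for the pair. DDIT3, which encodes CHOP, and TRIB3, a pseudokinase that CHOP induces, rose by 2.13 and 2.24 on the log2 scale, while ATF4 itself rose by 0.64. CEBPD fell from 5.59 and 3.44 FPKM to 2.61 and 1.49, a call lost without any 1 of the 4 libraries. The 15 rises became 14 without either unnumbered library and 10 without either R2 library.

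The metabolic arm of the same program moved less evenly. Among amino acid synthesis genes 12 of 20 rose and 3 fell (median 0.61). CTH, which makes cysteine from cystathionine, rose from 0.730 and 0.620 FPKM to 3.62 and 2.11. ASNS, asparagine synthetase, was low, at 0.434 and 0.372 FPKM with vehicle and 1.21 and 3.05 with bortezomib, a call lost without either R2 library. Only 8 of these genes rose without either unnumbered library and 2 without either R2 library. Among cytosolic tRNA synthetases 8 of 20 rose and 1 fell (median 0.29). GARS, the glycyl-tRNA synthetase, rose from 74.5 and 20.9 FPKM to 145 and 62.4, while VARS, the valyl-tRNA synthetase, fell from 23.4 and 25.9 to 14.4 and 13.5 with its call lost without either R2 library. Of these synthetases 5 rose without either unnumbered library and 2 without either R2 library.

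The site for C/EBP-ATF dimers was searched as TGATGCAA on both strands. It was in 0.432% of the promoters of genes tested and in 0.866% of all RefSeq promoters. It was in 6 of 16 tRNA synthetase promoters, 3 of 13 amino acid synthesis promoters and 1 of 17 promoters of the ATF4 and CHOP list. The site was in 1.0% of the 100 largest rises and 0.0% of the 100 largest falls. Over all called genes it was in 0.943% of the higher and 0.396% of the lower ones. BCL2A1 and ITGB5, both called lower, have the site before their starts. HERPUD1, a membrane protein of the endoplasmic reticulum that serves in degradation of its misfolded proteins, has one in the window shown (chr16:56931940-56931999, plus strand).
HERPUD1: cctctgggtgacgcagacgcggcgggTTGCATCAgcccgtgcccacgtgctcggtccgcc
HERPUD1 rose from 10.9 and 20.02 FPKM to 27.6 and 53.4. The unfolded protein response of the endoplasmic reticulum, to which it belongs, gave 6 rises and 3 falls in 25 genes (median 0.17), near the 16.1% and 16.4% called over all genes. ERN1, the sensor kinase IRE1, rose from 1.71 and 3.23 FPKM to 5.94 and 11. XBP1, the factor that IRE1 activates by splicing, rose from 14.9 and 35.2 FPKM to 37.0 and 84.2. HSPA5, the main chaperone of this compartment, rose by 1.04 on the log2 scale. MANF, CRELD2 and PDIA4, which help fold secreted proteins, fell by 0.61, 0.60 and 0.55. Without either R2 library none of these 3 falls was called, and without either unnumbered library 2 members fell.

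Most p53 targets rose. Of 23 tested 16 rose and none fell (median 0.82). CDKN1A, the inhibitor p21 of cyclin-dependent kinases, was at 33.3 and 11.9 FPKM with vehicle and 126 and 68.0 with bortezomib. GADD45A, a stress and DNA damage response gene, went from 15.3 and 8.63 FPKM to 81.2 and 32.2. MDM2, a ubiquitin ligase, went from 4.70 and 3.00 FPKM to 21.2 and 11.01. For each of these 3 the bortezomib libraries lay above both vehicle libraries. BAX, which permeabilises mitochondria in cell death, had a log2 change of 0.40 and was not called. In the BCL2 family of death regulators 4 of 13 rose and 1 fell (median 0.23). PMAIP1, the death-promoting protein NOXA, rose from 4.58 and 3.21 FPKM to 15.4 and 12.02. BCL2A1, a survival member, fell from 4.16 and 3.34 FPKM to 1.501 and 0.390, a call lost without either R2 library. Of the BCL2 family 2 rose without either unnumbered library and 3 without either R2 library, and none fell without either R2 library.

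Autophagy genes rose in 11 of 19 cases and none fell (median 0.53). GABARAPL1, a membrane-anchored ubiquitin-like protein of the autophagosome, was at 4.02 and 1.18 FPKM with vehicle and 29.9 and 14.1 with bortezomib. MAP1LC3B, its relative LC3B, went from 13.2 and 3.33 FPKM to 34.8 and 14.6. SQSTM1, the cargo receptor p62, rose by 0.83 on the log2 scale. Of the 19, 9 were called without either unnumbered library and 6 without either R2 library. In the NF-kappaB list 8 of 16 rose and 1 fell (median 0.62). RELB, a subunit of the pathway's alternative branch, rose from 9.49 and 7.13 FPKM to 30 and 17.5. BIRC2, an inhibitor of apoptosis that also restrains that branch, rose from 10.6 and 9.43 FPKM to 26.2 and 23.8. NFKBIA, which encodes the inhibitor that the proteasome removes in the canonical branch, had a log2 change of -0.07 and was not called. Without either unnumbered library 5 of the NF-kappaB genes rose, and without either R2 library 6.

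The other genes among the 12 largest rises fell outside these lists. FAM129A, a stress-induced cytosolic protein known as Niban, was at 0.582 and 0.402 FPKM with vehicle and 17.2 and 12.3 with bortezomib. DEDD2, a death effector domain protein, went from 17.5 and 9.94 FPKM to 123 and 75.4. MIR656, a microRNA gene of 78 bases, had no read in either vehicle library and 10 and 35 reads with bortezomib. Against a floor of 3 reads per library its level was at least 5.64-fold higher in the unnumbered pair and 11.6-fold higher in the R2 pair. AC068580.5 was at 4.17 and 1.49 FPKM with vehicle and 16.6 and 27.6 with bortezomib, and lies inside CTSD on the same strand, so its reads may belong to either gene. The 12 largest rises were ranked only among called genes whose groups do not overlap, so these 4 meet that condition by choice.

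**Figure D2:**
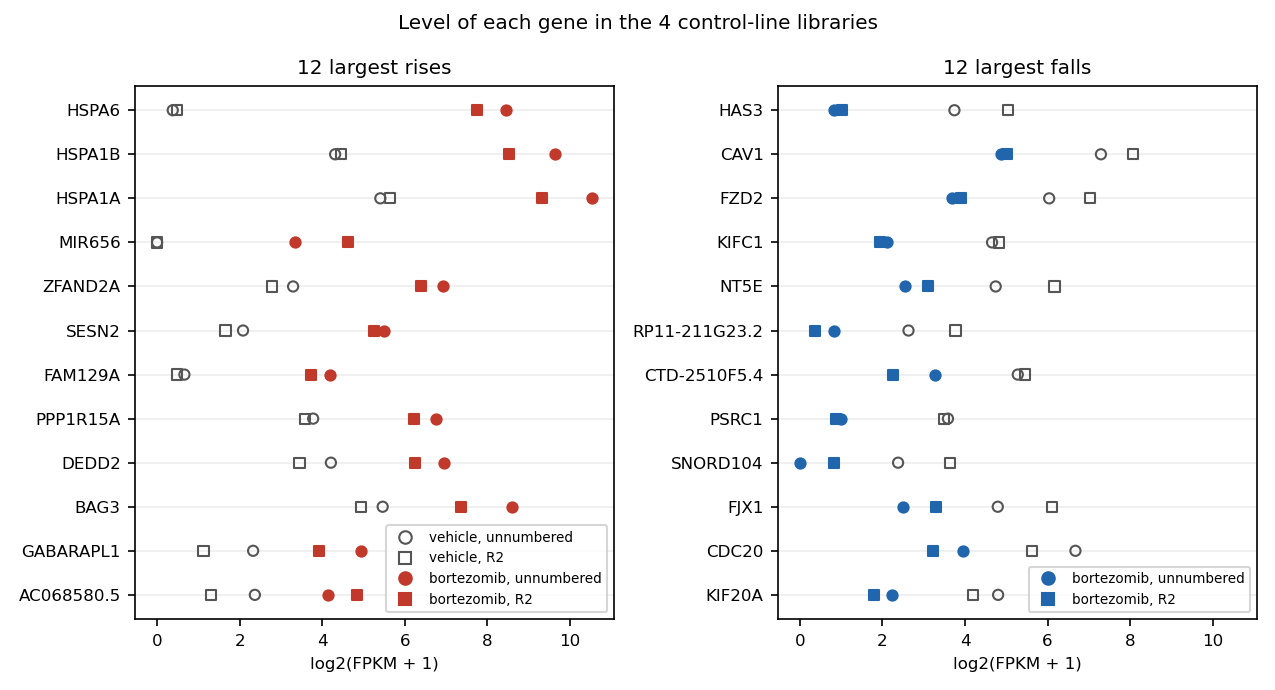
Level of the 12 called genes with the largest rises (left) and the 12 with the largest falls (right) among those whose groups do not overlap, as log2(FPKM + 1) in the 4 control-line libraries. Open symbols are vehicle, filled ones bortezomib, circles the unnumbered pair and squares the R2 pair. HSPA6 runs from 0.301 and 0.406 FPKM to 351 and 216, and HAS3 from 12.4 and 32.1 to 0.780 and 1.03.

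Among the falls, mitotic genes moved as the most uniform group of all lists. All 25 tested were called lower, the groups did not overlap in any of the 25, and the median log2 change was -1.82 (range -2.56 to -1.25). The count stayed at 25 without any 1 of the 4 libraries. In all, 16.4% of genes were called lower. CDC20, which activates the anaphase-promoting complex, was at 101 and 48.0 FPKM with vehicle and 14.4 and 8.31 with bortezomib. PLK1, a kinase that drives entry into mitosis, fell from 35.0 and 20.5 FPKM to 5.23 and 3.27. TOP2A, the topoisomerase that separates sister chromatids, fell from 186 and 162 FPKM to 41.4 and 30.1. The smallest fall was in BUB1B, a checkpoint kinase, with a log2 change of -1.25. Mitotic genes took 0.513% and 0.416% of reads with vehicle and 0.130% and 0.102% with bortezomib. In bulk samples fewer cells in mitosis and less RNA per cell cannot be told apart. Without the term for the pair, CCNF, MKI67, AURKB and ASPM of this list were called.

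The 12 largest falls also held spindle genes, of which KIF20A is already counted in the mitosis list. KIFC1, a minus-end kinesin that clusters spindle poles, fell from 24.2 and 27.4 FPKM to 3.34 and 2.81. PSRC1, which acts on spindle microtubules, fell from 11.01 and 10.2 FPKM to 0.996 and 0.837. KIF20A, a kinesin of the late mitotic spindle, fell from 26.9 and 17.2 FPKM to 3.72 and 2.44. The ratio of vehicle to bortezomib in the unnumbered and R2 pairs was 7.25 and 9.76 for KIFC1, 11.1 and 12.2 for PSRC1, and 7.23 and 7.06 for KIF20A. CTD-2510F5.4, an RNA annotated opposite PRR11, went from 37.8 and 43.0 FPKM to 8.64 and 3.81.

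DNA replication genes fell less and with more dependence on single libraries. Of 23 tested 11 fell and none rose (median -0.51). FEN1, the flap endonuclease, fell from 46.1 and 37.3 FPKM to 14.6 and 13.1. RRM2, a subunit of ribonucleotide reductase, fell from 28.7 and 20.3 FPKM to 9.22 and 10.7. CDT1 and RRM1 had log2 changes of 0.32 and 0.24 and were not called. Without either unnumbered library 1 of the 23 was called lower, and RRM2 was not, while 5 were without either R2 library.

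The cell cycle genes homology region, a promoter letter run through which mitotic genes are held down outside mitosis, was searched as TTTGAA on both strands, after values had been seen. It was in 9.09% of the promoters of genes tested and in 15.2% of all RefSeq promoters. It was in 33.0% of the 100 largest falls, in 6.0% of the 100 largest rises, in 14 of 21 mitosis promoters (66.7%) and in 1 of 20 replication promoters (5.0%). Over all called genes it was in 14.2% of the lower and 8.22% of the higher ones. The CCAAT box, also added after values were seen, was in 37.0% of the promoters of genes tested, 18 of 21 mitosis promoters (85.7%) and 34.6% of all RefSeq promoters. The windows of CDC20 (chr1:43358889-43358948, plus strand) and TOP2A (chr17:40418015-40418074, minus strand) show the 6-letter run in capitals.
CDC20: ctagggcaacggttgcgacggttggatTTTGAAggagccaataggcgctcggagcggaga
TOP2A: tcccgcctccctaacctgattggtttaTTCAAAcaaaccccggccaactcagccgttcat
The run ends 60 bases before the start of CDC20 and 146 bases before that of TOP2A.

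**Figure D3:**
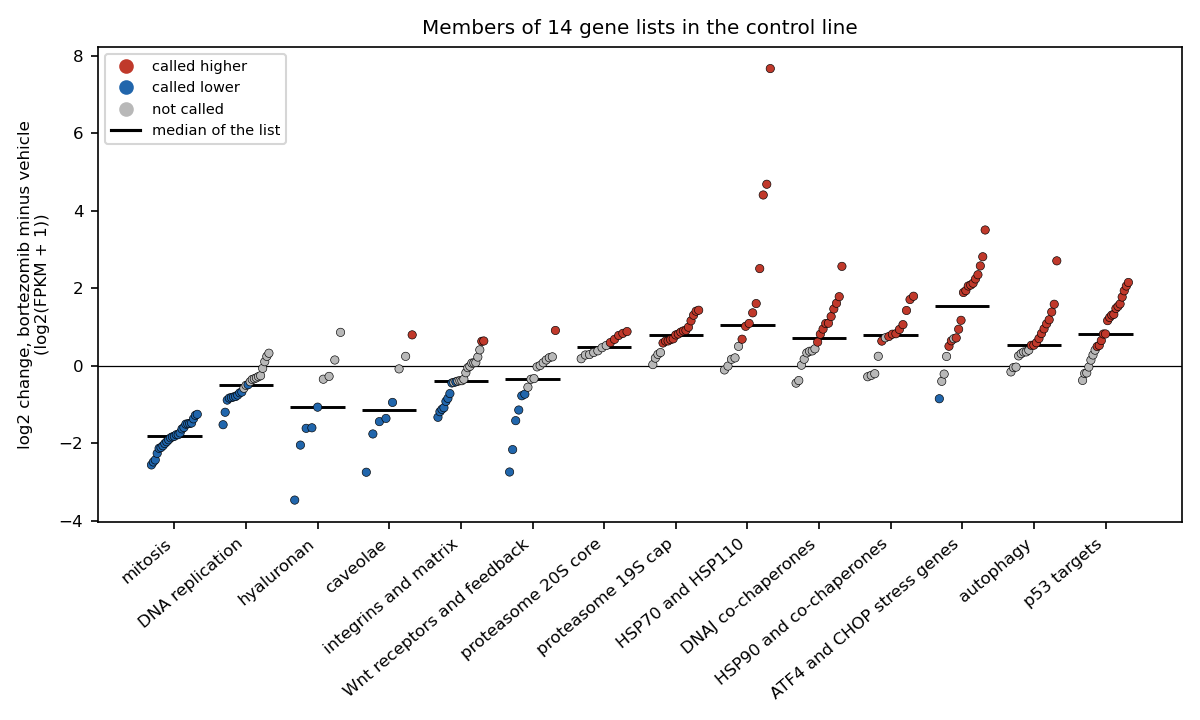
Log2 change from vehicle to bortezomib of each tested member of 14 gene lists, on the log2(FPKM + 1) scale. Points are genes (red called higher, blue called lower, grey not called) and bars are list medians. All 25 mitosis genes lie between -2.56 and -1.25, and HSPA6, at 7.68, is the highest point.

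The largest falls of single genes were in cell surface genes. HAS3, a synthase that extrudes hyaluronan from the plasma membrane, was at 12.4 and 32.1 FPKM with vehicle and 0.780 and 1.03 with bortezomib. The ratio of vehicle to bortezomib was 15.9 in the unnumbered pair and 31.1 in the R2 pair. It led a list of 9 hyaluronan genes, of which 5 fell and none rose (median -1.07). HAS2, another synthase, fell from 4.42 and 5.998 FPKM to 0.577 and 1.56. HMMR, a hyaluronan receptor that also serves the spindle, fell from 20.3 and 15.99 FPKM to 4.73 and 2.69. CD44, the main hyaluronan receptor, had a log2 change of -0.27 and was not called. HAS3 is overlapped on the opposite strand by CHTF8. Of the 9, 5 fell without either unnumbered library and 4 without either R2 library.

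Caveola genes fell too. CAV1, the main coat protein of these membrane pits, was at 156 and 269 FPKM with vehicle and 28.1 and 31.2 with bortezomib. CAV2, its partner, went from 21.8 and 26.4 FPKM to 6.72 and 6.05. SDPR, the coat protein cavin-2, fell from 7.07 and 2.80 FPKM to 1.32 and 0.789, a call lost without either unnumbered library. PACSIN2, a membrane-bending protein, rose by 0.80, a call lost without any 1 of the 4 libraries. In all 5 of 8 fell and 1 rose (median -1.15). Without either unnumbered library 3 fell, and without either R2 library 4. In integrins and matrix 9 of 24 fell and 2 rose (median -0.39). ITGB5, a vitronectin receptor subunit, fell from 106 and 249 FPKM to 45.9 and 89.2, and ITGA3, a laminin receptor subunit, fell from 145 and 318 to 71.2 and 124. The groups of these integrins did not overlap. Without either R2 library 2 of this list fell, against 9 without either unnumbered library.

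Wnt and other surface receptors were among the falls. FZD2, a Frizzled receptor for Wnt ligands, was at 64.7 and 130 FPKM with vehicle and 11.9 and 13.9 with bortezomib. LGR4, a receptor for R-spondins that heightens Wnt signalling, fell from 56.6 and 116 FPKM to 11.6 and 25.5. AXIN2, a feedback inhibitor that Wnt signalling induces, rose from 0.466 and 0.399 FPKM to 1.88 and 1.52, a call lost without either unnumbered library. Of 16 genes in the list 6 fell and 1 rose (median -0.34), while FZD7 and FZD1 had log2 changes of 0.01 and -0.03. AXL, a receptor tyrosine kinase, fell from 102 and 212 FPKM to 23.9 and 30.8. NT5E, the ectoenzyme CD73 that forms adenosine, fell from 25.8 and 70.9 FPKM to 4.83 and 7.56. FJX1, a secreted signalling regulator, fell from 26.7 and 67.9 FPKM to 4.61 and 8.76. TGFBR2, the type II receptor for TGF-beta, fell from 31.2 and 56.8 FPKM to 10.2 and 13.7. In each of these falls both bortezomib libraries lay below both vehicle libraries, although the R2 vehicle library was the higher one. FZD2, NT5E and FJX1, among the 12 largest falls, were ranked on that condition.

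Not all surface genes fell. HBEGF, a ligand of the EGF receptor, rose from 1.32 and 4.68 FPKM to 7.37 and 16.5, and EPCAM, an epithelial adhesion molecule, from 1.25 and 2.19 to 4.01 and 6.91. NOTCH1 and its ligand JAG1 rose by 1.24 and 1.01 on the log2 scale, whereas LFNG, a glycosyltransferase that modifies Notch, fell by 0.99. EBP, a sterol isomerase, fell from 29.8 and 66.1 FPKM to 14.1 and 30.7. KLF11, a zinc finger repressor, rose from 2.33 and 0.524 FPKM to 11.6 and 4.00, and was the only member of the KLF list called.

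Some large groups were mostly not called. Of 77 ribosomal protein genes none rose and 1, RPS26, fell (median 0.10), and the call of RPS26 was lost without either unnumbered library. Of 21 nuclear genes for complexes I and III none rose and 2 fell. Of 15 mitochondrially encoded genes only MT-RNR2, a ribosomal RNA, was called, with a rise of 0.73 on the log2 scale and groups that overlapped. The call of MT-RNR2 was lost with quantile normalization (limma adjusted p = 0.167). Interferon response genes gave 2 rises in 10 and no fall. The lincRNA genes, 1 class of long noncoding RNA genes, held fewer rises than falls. Of 258 tested 20 were higher (7.75%) and 67 lower (26.0%), against 16.1% and 16.4% over all genes. Antisense genes leaned the same way, with 42 of 345 higher and 67 lower. Sense intronic genes went the other way, with 18 of 94 higher (19.15%) and 5 lower (5.32%). Of 50 genes annotated as processed transcripts 9 were higher and 8 lower. RP11-211G23.2, a lincRNA, was among the 12 largest falls, with both bortezomib libraries under 1 FPKM. SNORD104, a small RNA gene inside SNHG25, had 7 and 15 reads with vehicle and 0 and 1 with bortezomib. Its call was lost without either R2 library.

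**Figure D4:**
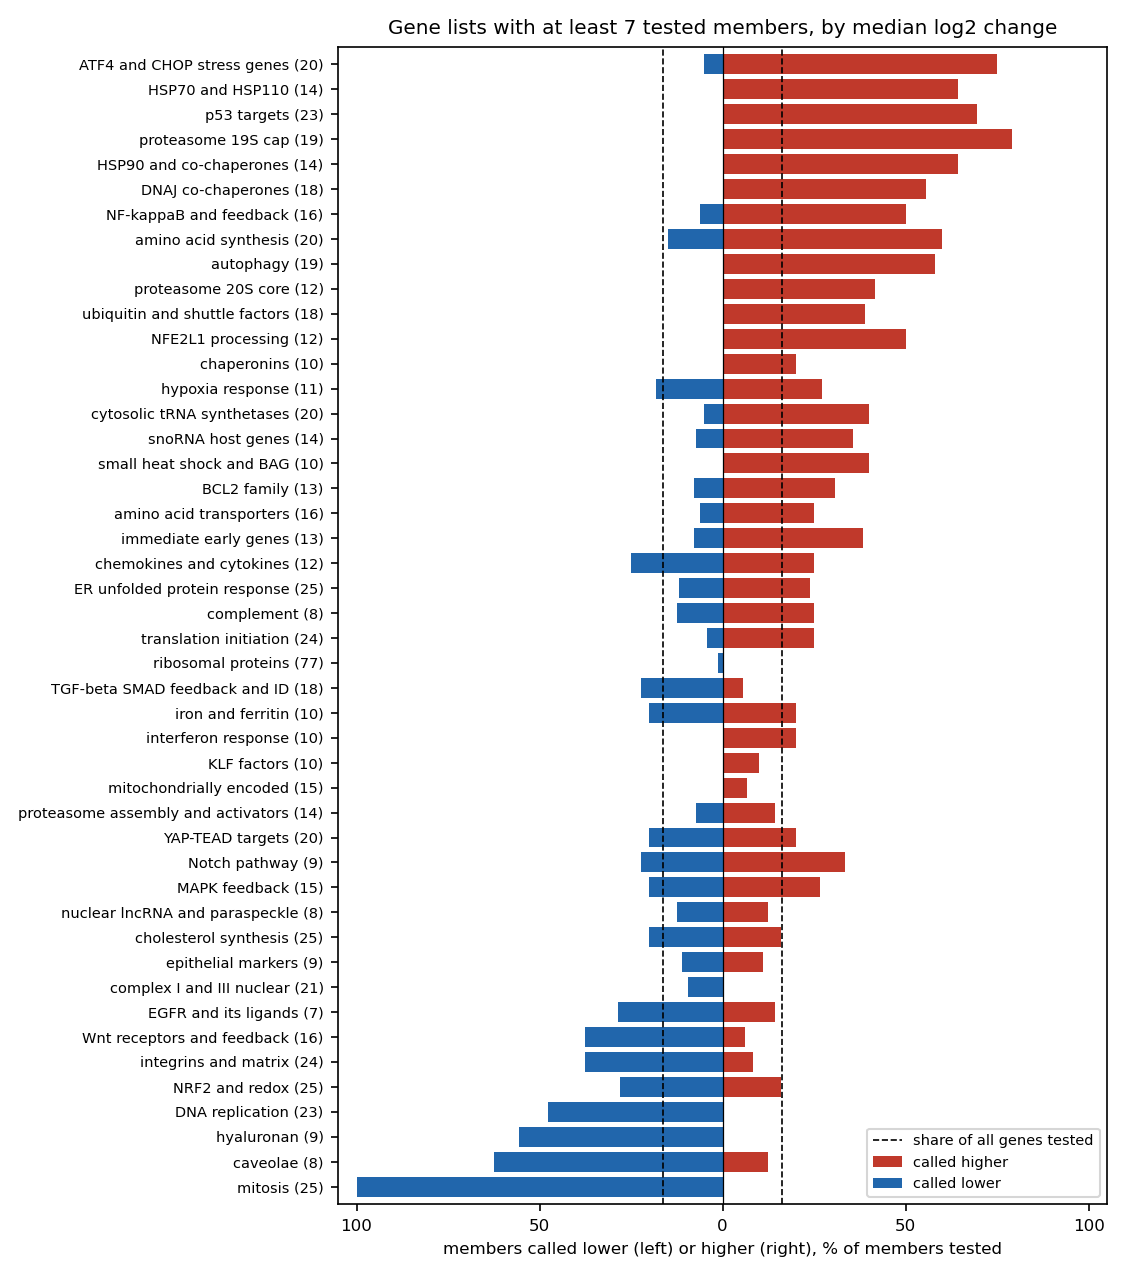
Share of tested members called higher (red, right) or lower (blue, left) in gene lists with at least 7 tested members, ordered by median log2 change, with the number tested in brackets. Dashed lines are the shares over all genes tested, 16.1% higher and 16.4% lower. The mitosis list is 100% lower.

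Called genes differed in size and level from the rest. The median genomic span was 32.8 kb for the higher genes, 21.5 kb for the lower ones and 27.2 kb for all tested, and the median number of exons was 10, 7 and 9. With vehicle the higher genes had a median of 4.85 FPKM and the lower ones 10.5, against 5.81 over all. With bortezomib the order was reversed, at 9.125 and 5.097 against 5.802. Both levels are part of the contrast that made the calls, so the difference in level follows at least partly from that selection.

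The same treatment in the knockout lines was set beside the control line. Each line has vehicle libraries of its own. Of 1958 genes higher in the control line 1133 were also called higher in KO1 (57.9% of the control line's calls, 66.9% of KO1's) and 1155 in KO2 (59.0% and 74.9%). Of 1994 lower genes 1197 were lower in KO1 (60% and 71.1%) and 1308 in KO2 (65.6% and 74.6%). In both KO lines together 983 and 1059 held the same call, while 10 of the higher and 6 of the lower genes had the opposite call in at least 1 KO line. The response of the control line minus the mean response of the KO lines was called for 0 genes (0.0%) by limma with the pair term, with 1305 at an unadjusted p under 0.05 and 115 without the pair term. The smallest adjusted p was 0.0635. A voom model on the recovered reads, with the pair term, called 120 genes.

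Values of single genes in the 3 lines are given side by side. HSPA6 had log2 changes of 7.68 in the control line and 7.58 and 8.11 in KO1 and KO2. PSMC4 had 1.43 against 0.85 and 0.81. PSMC6 had 1.41 against 0.80 and 0.92. DUSP1, a phosphatase of MAP kinases, rose by 0.96 in the control line, from 103 and 61.0 FPKM to 194 and 124, against 2.98 and 2.38 in the KO lines. The DUSP1 call in the control line was lost without either R2 library. CXCL2, a neutrophil chemokine, had 1.76 against 3.83 and 2.87. The median change of the 19S cap list was 0.80 in the control line and 0.60 and 0.58 in the KO lines, and that of the mitosis list was -1.82 against -1.18 and -1.60. None of the 5 genes passed the test of the difference, and the list medians were not tested.

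**Figure D5:**
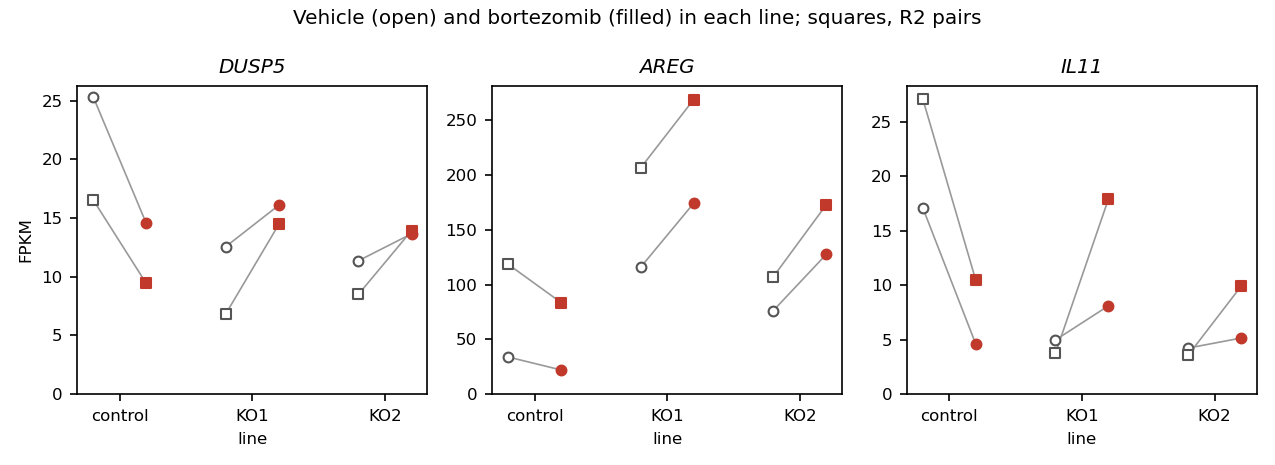
FPKM of DUSP5, AREG and IL11 with vehicle (open) and bortezomib (filled) in the control line, KO1 and KO2. Lines join libraries of 1 pair, and squares are R2 pairs. All 3 genes fall in both control pairs, IL11 by 1.5 on the log2 scale, and are higher with bortezomib in all 4 KO pairs.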

How the data were processed

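RNA was extracted on columns and random-primed libraries were sequenced, per the labels' protocols. Values were deposited by the authors as FPKM per gene. The submitters' processing notes name STAR 2.5, HTSeq 0.6.1 and hg19 with no roles, while all 58676 gene IDs are in GENCODE release 29 and 95.3% of positions match it on GRCh38. The strand setting is not given in the sources used here, so overlapping genes may share reads. Whole reads were recovered from FPKM and gene length for 100.0% of values (within 0.05 reads).

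Genes with a mean of at least 1 FPKM over 12 libraries were tested with limma 3.58.1 in R 4.3.3 on log2(FPKM + 1), with eBayes trend, 6 group means and a block by title suffix. The block was kept because the comparison is defined over pairs. The difference of the R2 library from the other library of its group correlated across genes at r from 0.696 to 0.89 over 15 pairs of groups. It was 0.769 between the 2 control-line groups. The other library is unnumbered in the control line and R1 in the KO lines. Fold changes on this scale understate low genes. Summaries were made in Python 3.11.15 (scipy 1.17.1, pandas 2.3.3, numpy 2.4.6). The fit was also run on simulated data in which a small share of genes changed, in the control line alone. That run does not gauge the calls here, where many genes changed and all lines responded. Nothing in the labels says that replicates were separate cultures, so p-values measure only the spread between these libraries. An exact permutation test of 2 against 2 cannot go below p = 0.333. A floor of 3 reads at 1 kb equals 0.126 to 0.213 FPKM. For the 78-base MIR656 it equals 1.615 and 2.057 FPKM in the vehicle libraries. Counting error is therefore larger for short genes and for genes with few reads.

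The comparison, lists and tests were chosen with earlier results of these data known. Genes named by rule were the 12 largest rises and falls with groups that do not overlap, the called extremes of each list (up to 4), NFE2L1, and the largest change of a list with no call. A few genes that the rule names or the lists hold are not reported here. Every other gene named was chosen after its values were seen. Promoters came from RefSeq (GRCh38.p14). Alternatives were the block, pseudocount, filter, normalization, voom on reads and leaving out libraries.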

Additional observations from a re-analysis of the deposited data

Results flagged for a closer look

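In 3 of the named genes reported here both control-line pairs moved one way and all 4 KO pairs the other. None passed the test of the difference between the control line and the mean of the KO lines. DUSP5, a nuclear phosphatase of the kinase ERK, had a log2 change of -0.76 in the control line and 0.66 and 0.45 in KO1 and KO2 (limma adjusted p of the difference 0.111). Its vehicle level was 25.3 and 16.5 FPKM in the control line, 12.6 and 6.84 in KO1 and 11.4 and 8.5 in KO2. AREG, an EGF receptor ligand, had -0.55 against 0.48 and 0.71 (limma adjusted p 0.0775). IL11, a cytokine of the IL-6 family, had -1.5 against 1.30 and 0.75 (limma adjusted p 0.0669). Its FPKM went from 17.1 and 27.1 to 4.58 and 10.4 in the control line, from 4.96 and 3.73 to 8.10 and 17.9 in KO1, and from 4.22 and 3.56 to 5.14 and 9.90 in KO2. The control-line calls of DUSP5 and AREG were lost without any 1 of the 4 control-line libraries, that of AREG also with quantile normalization (limma adjusted p 0.101), and that of IL11 without either unnumbered library.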

How the results depend on the processing

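The replicate block decided the number of calls. Without it 57 genes were called (28 higher, 29 lower; in the lists 11 and 7), and voom without it called 41 (21 and 20; in the lists 11 and 8). With no filter on low values 2448 were called (1285 and 1163), and with a log2 change of at least 1 also required, 1053 (468 and 585; in the lists 98 and 61). Leaving out each control-line library in turn gave 1749 to 2257 calls (714 to 1273 higher, 983 to 1047 lower; in the lists 114 to 154 and 71 to 72, against 205 and 117). The contrast then rests on 1 pair, with the lone library assumed to vary like the other groups. The difference from the KO lines stayed at 0 calls in those fits, and gave 23 with a pseudocount of 5, 1 with no filter, 120 with voom and the block, and 1 after median-ratio scaling. Quantile normalization with the block called 2172 higher and 1974 lower. No called gene changed direction in any setting in which it was tested. The fits without the block or without a library could not show such a change, because both pairs of every called gene had the same sign. With 2 libraries a group, calls depend on a spread pooled over all 6 groups.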

Other observations

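Genes that share a symbol stem were counted after values had been seen, so the counts are descriptions. Over all genes tested 16.1% were called higher and 16.4% lower, and each count is to be read beside those shares. Of 112 zinc finger (ZNF) genes on chromosome 19, 30 were called higher (26.8%) and 2 lower (1.8%), and of 191 on other chromosomes 55 (28.8%) and 16 (8.4%). ZNF189 rose from 4.50 and 2.77 FPKM to 12.9 and 12.7. Of 12 histone cluster genes 8 fell and none rose (median log2 change -1.11), for example HIST1H2AC from 10.2 and 4.81 FPKM to 1.32 and 1.05.

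Of 159 TMEM genes, which encode transmembrane proteins, 12 rose (7.5%) and 63 fell (39.6%). Of 40 glycosyltransferase genes 2 rose (5.0%) and 17 fell (42.5%). ST6GAL2, a sialyltransferase, fell from 23.97 and 40.2 FPKM to 3.72 and 7.08. Of 35 genes with the UBE2 stem, that of enzymes that conjugate ubiquitin, 10 rose (28.6%) and 3 fell (8.6%). The stem also takes in pseudogenes, and UBE2Q2P2 and UBE2FP1 are counted among the rises. The genes of this stem that fell were UBE2C, UBE2S and UBE2T, with log2 changes of -1.91, -1.25 and -1.23. UBE2C and UBE2S serve the anaphase-promoting complex. Of 33 kinesin genes 7 rose (21.2%) and 14 fell (42.4%). KIF1B, a transport kinesin, rose from 4.49 and 3.13 FPKM to 14.7 and 9.63, and KIF18A, a mitotic kinesin, fell from 14.8 and 9.32 to 3.37 and 2.73.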
